A study of Mus musculus with 32 samples.

Results

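The genes described here are 8 members of the Notch pathway: the receptors Notch1, Notch2, Notch3 and Notch4, the ligand Jag1, and the target genes Hes1, Hey1 and Heyl. They were chosen by gene symbol, with earlier results of these data known. Every probe set that the array annotation gives to 1 of these symbols, or to an older synonym of it, was taken. This gave 17 of the 45265 probe sets of both array types, for 8 of the 18193 genes that the annotation names. Array A held 15 of them and array B the other 2. Of the 17 probe sets, 11 passed a filter on low values (a mean over all samples at or above the 40th percentile of their array type) and were tested, with at least 1 for each gene. The other 6 are given as values.

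RNA of early-passage primary mouse embryonic fibroblasts (MEFs), cells grown out of mouse embryos, was hybridised to both Affymetrix array types, so 16 RNA extracts gave 32 samples. The 4 groups, with 4 replicates each, combined genotype (wild type or Oct-1 mutant) with irradiation (unirradiated or irradiated). Oct-1, the product of Pou2f1, is a transcription factor of the POU family that binds the octamer motif. The Oct-1 allele, its zygosity, the strain, the radiation dose and the time after irradiation are details not given in the sources.

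In Notch signalling, a ligand such as Jag1 on one cell binds a Notch receptor on its neighbour. The receptor is then cut by an ADAM protease and by gamma-secretase, and its intracellular part enters the nucleus. There it joins the DNA-binding protein RBPJ and switches on target genes, among them the repressors of the Hes and Hey families, which act in cell fate decisions during development.

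The deposited values are on a log scale, taken as base 2 from their range, which for array A was 0.26 to 15.75 and for array B 0.0973 to 15.51. How they were summarised, scaled and centred is unknown. Sample medians were 6.16 to 6.28 for array A and 3.67 to 3.78 for array B. Replicates had correlations of at least 0.985 over all probe sets, and 0 pairs of samples held identical values. The labels do not give the origin of the replicates, so p-values measure only the spread between these samples, and 4 arrays per group limit the precision. In bulk RNA, fewer cells of a type and less RNA per cell cannot be told apart. All 12 fibroblast markers checked passed the filter and 0 of 8 endothelial markers did. Of the other classes, 4 of 5 neural, 3 of 6 epithelial, 3 of 6 macrophage and blood and 1 of 4 skeletal muscle markers passed. Of 10 smooth muscle and pericyte markers 7 passed, and none of their 9 probe sets was called in any of the 7 comparisons. In these comparisons 0.0% to 7.51% of all probe sets were called, so 9 without a call do not show unchanged levels. For scale, the p53 targets Cdkn1a (probe set 1421679_a_at) and Mdm2 (1423605_a_at) were higher after irradiation by 2.10 and 1.55 log2 units in wild type and by 1.55 and 1.34 in mutant cells. Their other probe sets gave 1.39 and 1.23 for Cdkn1a (1424638_at) and 1.74 and 1.60 for Mdm2 (1427718_a_at) in wild type and mutant cells. The title numbers of replicates 1 and 2 and those of replicates 3 and 4 form separate runs, called the first and second number run here. No label says what the runs stand for.

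The 250 bases upstream of the start site of 4 genes are shown because 3 of them are the receptors whose level changed with irradiation and the fourth is the ligand that differed between genotypes. They come from RefSeq on GRCm38.p6, whose promoter table matched 5 of the 8 genes by symbol. They are written 5′ to 3′ on the strand of the gene, in lower case, with matches to the N-box CACNAG, a site bound by Hes1, in capitals on either strand.
Notch1, chr2:26503823-26504072, minus strand: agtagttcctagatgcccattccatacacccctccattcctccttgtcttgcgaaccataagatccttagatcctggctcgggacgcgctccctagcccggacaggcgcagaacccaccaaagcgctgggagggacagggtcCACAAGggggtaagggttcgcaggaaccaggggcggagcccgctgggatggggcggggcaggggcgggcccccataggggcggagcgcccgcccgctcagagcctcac
Notch2, chr3:98013288-98013537, plus strand: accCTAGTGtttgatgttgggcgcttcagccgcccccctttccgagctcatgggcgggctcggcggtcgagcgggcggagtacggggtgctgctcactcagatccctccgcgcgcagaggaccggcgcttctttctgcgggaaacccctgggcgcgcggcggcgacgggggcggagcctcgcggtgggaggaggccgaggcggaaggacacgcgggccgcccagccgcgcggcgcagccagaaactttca
Notch3, chr17:32166891-32167140, minus strand: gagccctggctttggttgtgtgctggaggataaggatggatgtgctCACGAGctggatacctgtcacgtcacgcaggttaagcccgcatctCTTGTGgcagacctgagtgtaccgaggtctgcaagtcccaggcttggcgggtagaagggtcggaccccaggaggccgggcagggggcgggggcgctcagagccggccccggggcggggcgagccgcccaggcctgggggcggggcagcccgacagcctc
Jag1, chr2:137116521-137116770, minus strand: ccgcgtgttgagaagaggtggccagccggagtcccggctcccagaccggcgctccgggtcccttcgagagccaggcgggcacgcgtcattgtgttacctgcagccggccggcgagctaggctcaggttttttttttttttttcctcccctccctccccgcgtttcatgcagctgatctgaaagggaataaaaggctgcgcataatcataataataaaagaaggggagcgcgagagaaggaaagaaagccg
Over the table's full window, which runs 50 bases past the start, the N-box matched 2 times for Notch3, 1 time for Notch2 and 3 times for Notch1, whose other 2 matches overlap each other at the start site and are not shown. The Notch3 matches lay at bases -204 to -199 and -159 to -154 from the start, the Notch2 match at -247 to -242 and the shown Notch1 match at -108 to -103. Jag1 and Notch4 held 0 matches. The N-box is common, at 42.5% of 32851 promoters of the same length. No match was found in any of the 5 windows to the RBPJ core GTGGGAA (6.38% of promoters), the octamer ATGCAAAT that Oct-1 binds (1.74%), the E-box CACGTG (7.15%) or the p53 half-site consensus (8.36%). The searches covered both strands and required exact matches.

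Irradiation of wild type cells raised 2 of the 11 probe sets, 1 of Notch3 and 1 of Notch1, and lowered none at an adjusted p under 0.05 in limma (Benjamini-Hochberg over all probe sets tested). Over all 27083 probe sets tested, 2.31% were called. In Oct-1 mutant cells, irradiation raised 3 of the 11, those of Notch3 and both of Notch1, and lowered the Notch2 probe set, against 2.67% of all probe sets. Averaged over genotypes, the same 4 were called and 7.51% of all. Because the genes were chosen with earlier results known, these shares are a description and not a test of the set. The calls were all at receptors, and no probe set of Jag1, Hes1, Hey1 or Heyl was called. The median difference over the 11 probe sets was 0.04 log2 units in wild type and -0.02 in mutant cells.

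Notch3, a receptor best known from vascular smooth muscle, rose most among these genes. Its probe set 1421965_s_at on array A read 5.43, 5.46, 6.20 and 5.04 (log2) in wild type unirradiated replicates 1 to 4 and 7.30, 7.24, 7.38 and 7.69 in wild type irradiated replicates 1 to 4. In Oct-1 mutant cells it read 4.84, 5.74, 6.27 and 6.32 without irradiation and 7.49, 7.79, 8.13 and 7.98 with it. Every irradiated sample of both genotypes lay above every unirradiated sample, the lowest irradiated value being 7.24 and the highest unirradiated one 6.32. The spread was wider without irradiation, with an SD of 0.49 in wild type and 0.69 in mutant cells, against 0.20 and 0.28 with it. The lowest unirradiated values lay near the array A filter level of 4.97. Mutant replicate 1, at 4.84, was below it and wild type replicate 4, at 5.04, just above. The rise was 1.87 log2 units (SE 0.29) or 3.66-fold in wild type, with a limma adjusted p of 0.00108, and 2.06 log2 units (SE 0.29) or 4.16-fold in mutant cells, with an adjusted p of 0.000447. Averaged over genotypes it was 1.96 log2 units (95% interval 1.52 to 2.4) or 3.90-fold, and it stayed called whichever 1 of the 16 extracts was left out. It was 1.83 and 1.92 log2 units in the first and second number run of wild type cells, and 2.35 and 1.76 in those of mutant cells. The other Notch3 probe set, 1421964_at, lay below the filter. Its group means were 3.76 and 4.00 log2 in wild type cells without and with irradiation, and 3.89 and 4.41 in mutant cells. With no filter, it too was called in the mutant, at 0.52 log2 units (SE 0.11, limma adjusted p 0.0180), while wild type gave 0.24 (SE 0.11, adjusted p 0.469). The mean log2 value of 9 smooth muscle and pericyte marker genes on array A ranged over 8.0 to 8.49 in wild type unirradiated, 8.06 to 8.58 in wild type irradiated, 8.11 to 8.51 in mutant unirradiated and 8.18 to 8.55 in mutant irradiated samples.

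**Figure D1:**
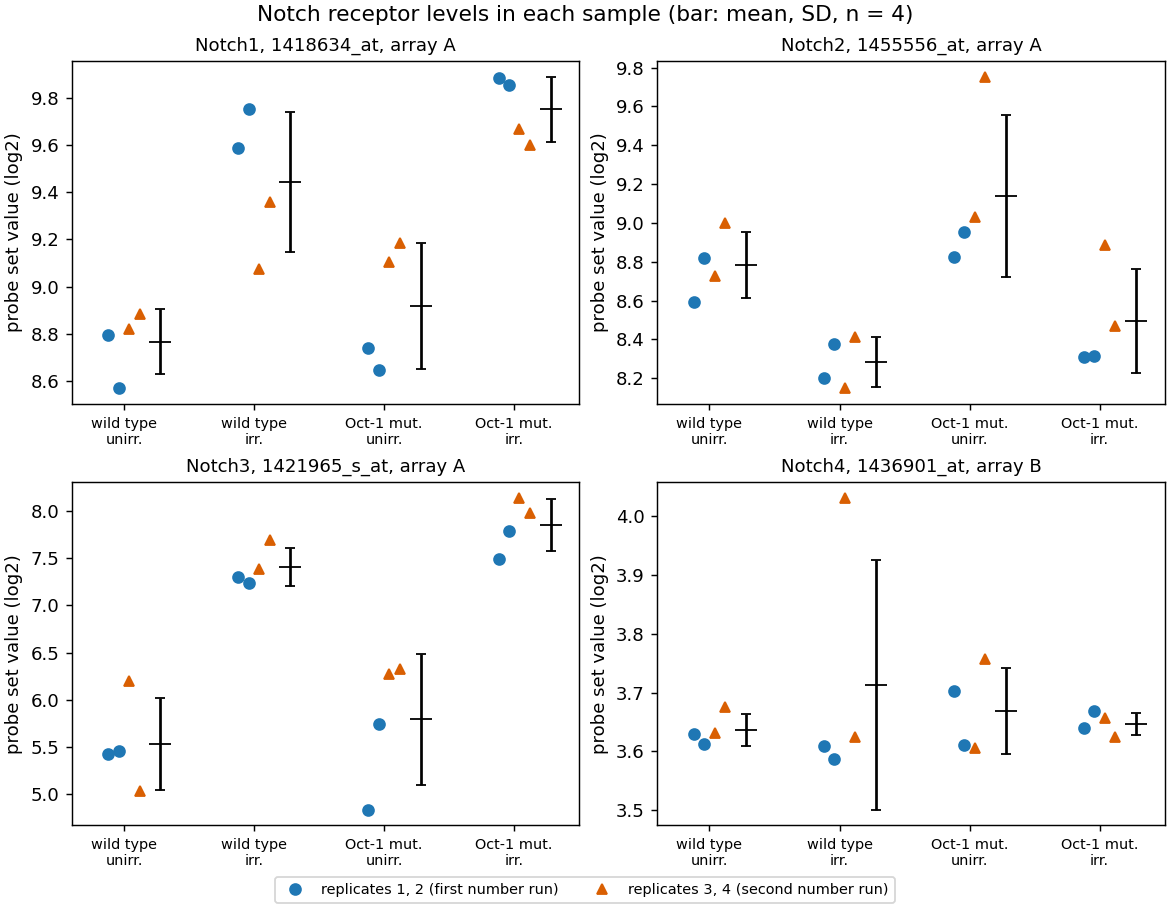
Probe set values (log2, vertical axis) of the 4 Notch receptors in each sample of the 4 groups; circles are replicates 1 and 2, triangles replicates 3 and 4, and bars the mean and SD (n = 4). All irradiated samples lie above all unirradiated ones for Notch3 by 1421965_s_at and, within each genotype, for Notch1 by 1418634_at, while the group means of Notch2 by 1455556_at lie lower after irradiation and those of Notch4 by 1436901_at show no such separation.

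Notch1, the receptor best known for T cell fate and vascular development, rose in both genotypes by its probe set 1418634_at. This probe set read 8.80, 8.57, 8.82 and 8.89 log2 in wild type unirradiated replicates 1 to 4, and 9.59, 9.76, 9.07 and 9.36 in the irradiated ones. In mutant cells it read 8.74, 8.65, 9.11 and 9.18 without irradiation and 9.88, 9.85, 9.67 and 9.60 with it. Groups did not overlap within either genotype, and the irradiated samples of the first number run stood highest in each. The rise was 0.68 log2 units (SE 0.15) or 1.60-fold in wild type, with a limma adjusted p of 0.0138, which became 0.0548 without wild type unirradiated replicate 2. It was 0.83 log2 units (SE 0.15) or 1.78-fold in mutant cells, with an adjusted p of 0.00297. Within the number runs the rise was 0.99 and 0.37 log2 units in wild type and 1.18 and 0.49 in mutant cells, so it was smaller in the second run of both genotypes. A test added after seeing the data gave a difference between runs of -0.66 log2 units (SE 0.11, limma adjusted p 0.0443), called for this probe set alone of the 11 and for 0.0406% of all probe sets. A smaller rise in the second run was not particular to Notch1. Averaged over genotypes, Cdkn1a rose by 2.21 and 1.44 log2 units in the first and second run by 1421679_a_at, and by 1.60 and 1.02 by 1424638_at. Mdm2 rose by 1.80 and 1.08 by 1423605_a_at, and by 2.03 and 1.305 by 1427718_a_at.

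The second Notch1 probe set, 1418633_at, was called in mutant cells and not in wild type. It read 6.95, 6.53, 6.56 and 6.40 log2 in wild type unirradiated replicates 1 to 4 and 7.38, 7.22, 6.67 and 6.62 in wild type irradiated ones, and these groups overlapped. In mutant cells it read 6.47, 6.15, 6.08 and 6.57 without and 7.63, 7.60, 6.86 and 7.13 with irradiation, with no overlap. The difference was 0.36 log2 units (SE 0.21, limma adjusted p 0.453) in wild type and 0.99 (SE 0.21, adjusted p 0.0105), or 1.99-fold, in mutant cells. The test of mutant against wild type gave 0.63 log2 units (95% interval 0.002 to 1.25), with an unadjusted p of 0.0495 and an adjusted p of 1.0, so the genotypes' responses were not shown to differ. Its difference between runs was -0.52 log2 units (SE 0.18, adjusted p 0.508).

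Notch2, a receptor with roles in kidney, liver and B cell development, was lower after irradiation. Its probe set 1455556_at read 8.59, 8.82, 8.73 and 9.0 log2 in wild type unirradiated replicates 1 to 4, and 8.20, 8.38, 8.15 and 8.42 in the irradiated ones. In mutant cells it read 8.82, 8.95, 9.03 and 9.75 without irradiation and 8.31, 8.32, 8.88 and 8.47 with it. The wild type groups did not overlap, whereas mutant irradiated replicate 3 lay above mutant unirradiated replicate 1. Averaged over genotypes, Notch2 fell by 0.57 log2 units (SE 0.12), or to a level 1.49-fold lower, with a limma adjusted p of 0.00657, and it stayed called whichever 1 extract was left out. The difference was -0.50 log2 units (SE 0.18, adjusted p 0.154) in wild type. It was called with the replicate block (adjusted p 0.0310, with 6.11% of all probe sets called) and with the number run as a block (0.034). Leaving out mutant unirradiated replicate 4 also gave a call (0.0405). In mutant cells the difference was -0.65 (SE 0.18) with an adjusted p of 0.0495. Leaving out 1 extract kept that call in 2 of 16 cases, with adjusted p up to 0.139. With 1 of the 8 wild type extracts left out it lay between 0.0542 and 0.0628. The call was also lost with no filter (0.0775), with quantile normalization (0.0570), with no variance trend (0.0531) and in the second number run alone (0.158). Of the mutant extracts it was not called without unirradiated replicates 2, 3 and 4 (0.0615, 0.0811 and 0.0822) or irradiated replicates 1, 2 and 4 (0.114, 0.139 and 0.108). The other Notch2 probe set, 1451889_at, lay below the filter, with group means of 4.26 to 4.30 log2 that were nearly level across the groups.

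Of the 3 Notch4 probe sets, the receptor being known mainly from endothelium, 1436901_at on array B passed the filter. It read 3.63, 3.61, 3.63 and 3.68 log2 in wild type unirradiated replicates 1 to 4 and 3.61, 3.59, 4.03 and 3.62 in wild type irradiated ones. The mutant samples lay between 3.61 and 3.76 without and between 3.62 and 3.67 with irradiation. Apart from wild type irradiated replicate 3, all samples lay between 3.59 and 3.76 and the groups overlapped. Irradiation gave 0.08 log2 units (SE 0.08, limma adjusted p 0.9997) in wild type and -0.02 (SE 0.08, adjusted p 0.959) in mutant cells. The probe sets 1449146_at and 1456263_at had group means of 2.54 to 2.59 and 1.51 to 1.59 log2, below the filter. The endothelial markers, none of which passed the filter, had a mean log2 value over 8 genes of 2.76 to 2.95 in all samples.

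**Figure D2:**
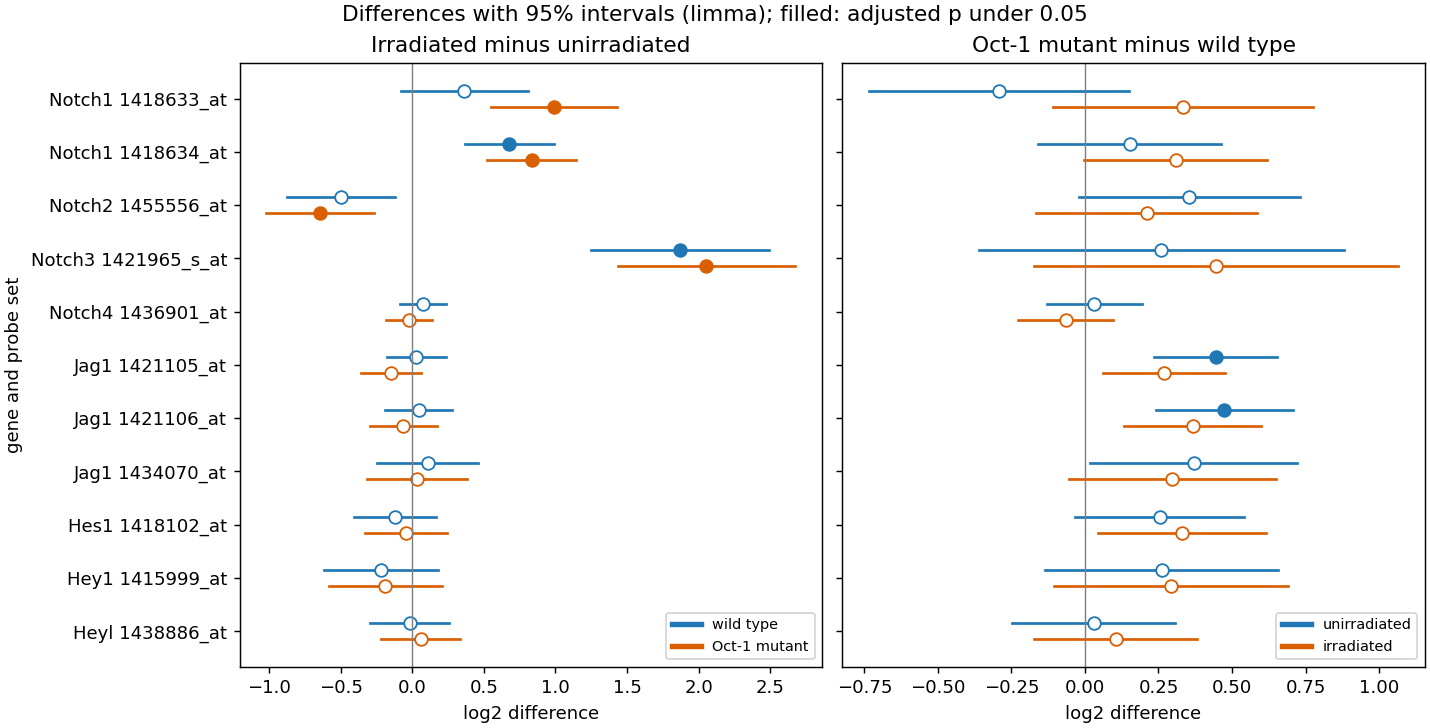
Differences (log2, horizontal axis) with 95% intervals from limma for the 11 probe sets tested; on the left irradiated minus unirradiated in wild type and Oct-1 mutant cells, on the right Oct-1 mutant minus wild type without and with irradiation, with filled points called at an adjusted p under 0.05. The irradiation calls are at Notch1, Notch2 and Notch3, and the genotype calls at 2 probe sets of Jag1.

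No difference between the genotypes' irradiation effects passed in limma, neither among the 11 probe sets nor among all 27083 (0.0% called, with 394 at an unadjusted p under 0.05). For Notch3 the difference of effects, mutant minus wild type, was 0.19 log2 units (95% interval -0.69 to 1.06). For Notch1 by 1418634_at it was 0.16 (-0.28 to 0.60), and for Notch2 it was -0.14 (-0.68 to 0.39). With 4 arrays per group, these intervals do not show that the genotypes responded alike.

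Within each number run, the irradiation effects averaged over genotypes kept their direction for the receptors that were called. They were 2.09 log2 units in the first and 1.84 in the second run for Notch3, and -0.50 and -0.65 for Notch2. For Notch1 they were 1.08 and 0.43 by 1418634_at and 0.93 and 0.42 by 1418633_at, the latter with a limma adjusted p of 0.0713 in the second run. Jag1, Hes1, Hey1 and Heyl gave between -0.27 and 0.18 in both runs.

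**Figure D3:**
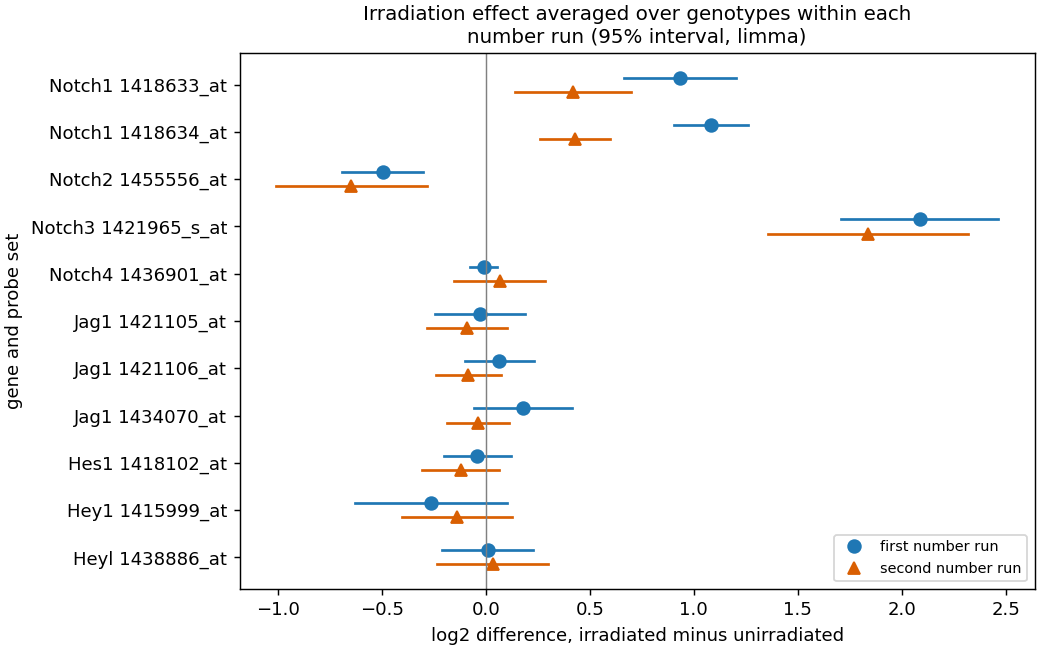
Irradiation effect averaged over genotypes (log2, horizontal axis) with 95% intervals from limma, fitted within the first (circles) and the second (triangles) number run, for the 11 probe sets tested. Both Notch1 probe sets lie lower in the second run (0.43 against 1.08 for 1418634_at); the intervals of the runs are separate for 1418634_at and overlap for 1418633_at, Notch3 and Notch2.

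The genotypes differed at the ligand. Jag1, a membrane-bound Notch ligand, was higher in Oct-1 mutant cells, and 2 of its 3 probe sets made up the 2 of 11 called without irradiation (2.16% of all probe sets tested) and averaged over irradiation (6.25%). With irradiation, 0 of 11 were called (2.09% of all; in limma the lowest unadjusted p among the 11 was 0.00424). With the replicate block, 3 of 11 were called in that comparison, against 6.02% of all, 3 without irradiation (6.42%) and 4 averaged over irradiation (13.9%). The median genotype difference over the 11, averaged over irradiation, was 0.28 log2 units, beside 0.015 over all probe sets tested. These shares and medians, too, describe genes chosen with earlier results known and do not test the set.

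Jag1 probe set 1421106_at read 8.81, 8.86, 9.23 and 9.23 log2 in wild type unirradiated replicates 1 to 4 and 9.39, 9.44, 9.62 and 9.58 in mutant unirradiated ones. After irradiation it read 8.94, 9.06, 9.28 and 9.02 in wild type and 9.46, 9.28, 9.55 and 9.47 in mutant cells. All 8 mutant samples lay above all 8 wild type samples, though the lowest mutant and the highest wild type value both round to 9.28. The difference was 0.47 log2 units (SE 0.11) or 1.39-fold without irradiation, with a limma adjusted p of 0.0233. With irradiation it was 0.37 (SE 0.11) or 1.29-fold, with an adjusted p of 0.0819. That p became 0.00448 with the replicate block and 0.00323 with the number run as a block. The unirradiated call was lost without wild type unirradiated replicate 1 or 2 (adjusted p 0.0788 and 0.0822) or without mutant unirradiated replicate 3 or 4 (0.0785 and 0.0680). Averaged over irradiation it was 0.42 log2 units (SE 0.08), adjusted p 0.00204, and stayed called whichever 1 extract was left out, with 0.48 in the first and 0.36 in the second number run.

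Jag1 probe set 1421105_at gave the same order. It read 7.07, 7.19, 7.26 and 7.31 log2 in wild type unirradiated and 7.42, 7.68, 7.62 and 7.89 in mutant unirradiated replicates 1 to 4. After irradiation it read 7.11, 7.21, 7.27 and 7.35 in wild type and 7.5, 7.43, 7.56 and 7.53 in mutant cells. Again no mutant sample lay below any wild type sample. The difference was 0.44 log2 units (SE 0.10) or 1.36-fold without irradiation, with a limma adjusted p of 0.0171 that became 0.0624 without wild type unirradiated replicate 1 and 0.0558 without mutant unirradiated replicate 4. With irradiation it was 0.27 (SE 0.10, adjusted p 0.179, or 0.0441 with the replicate block and 0.0481 with the number run as a block). Averaged over irradiation it was 0.36 (SE 0.07, adjusted p 0.00306), called whichever 1 extract was left out.

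The third Jag1 probe set, 1434070_at on array B, read 10.51, 10.56, 11.01 and 11.06 log2 in wild type unirradiated and 10.78, 11.07, 11.50 and 11.26 in mutant unirradiated replicates 1 to 4. After irradiation it read 10.72, 10.77, 11.03 and 11.04 in wild type and 10.89, 11.24, 11.30 and 11.32 in mutant cells. These groups overlapped, and within each group replicates 1 and 2 lay below replicates 3 and 4. Averaged over irradiation the difference was 0.33 log2 units (SE 0.12, limma adjusted p 0.206). The replicate block gave an adjusted p of 0.00332, and of 0.0320 without irradiation. With the number run as a block, the averaged difference was called (adjusted p 0.00557) and the one without irradiation was not. Irradiation left Jag1 within -0.15 to 0.11 log2 units in either genotype over its 3 probe sets, and the intervals of these differences reached from -0.36 to 0.46.

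Fibroblast markers also differed by genotype: 6 of their 26 probe sets were higher in mutant cells averaged over irradiation and 0 lower, beside 6.25% of all probe sets called. Among the 6 were those of Dcn and Lum, which encode small matrix proteoglycans. In the same comparison 2 of 7 neural marker probe sets, both of Map2, were lower, and 1 of 3 epithelial ones, of Krt18, was higher. The fibroblast markers' mean log2 value over 12 genes on array A ranged over 10.84 to 10.94 in wild type unirradiated, 10.65 to 10.74 in wild type irradiated, 11.26 to 11.55 in mutant unirradiated and 11.06 to 11.36 in mutant irradiated samples. Of the same 26 probe sets, 6 were lower after irradiation averaged over genotypes and 0 were higher, beside 7.51% of all probe sets called. Probe sets of Pdgfra and Twist1 were among the 6, and the rest of the 26 were not called. The part of these shifts in the Jag1 and Notch2 differences was not tested.

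**Figure D4:**
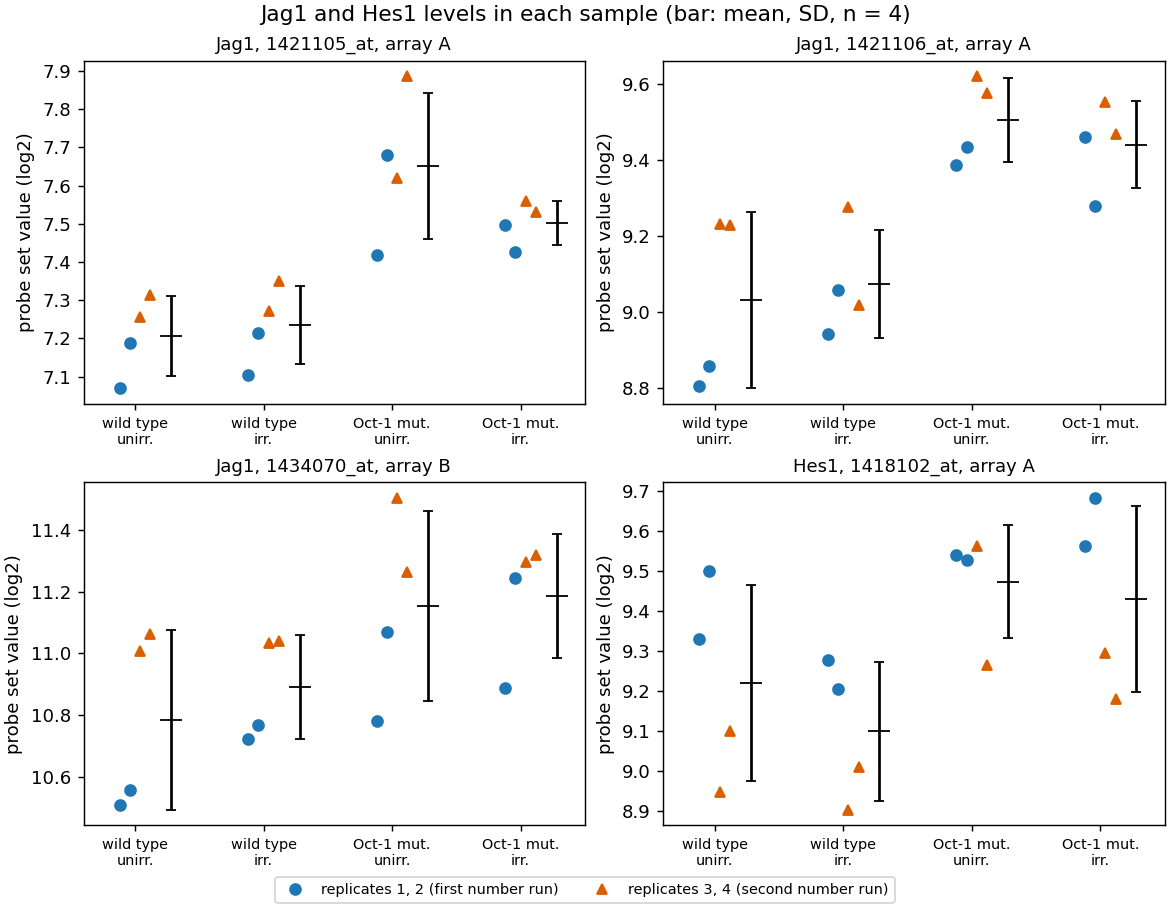
Probe set values (log2, vertical axis) of the 3 Jag1 probe sets and of Hes1 in each sample of the 4 groups; circles are replicates 1 and 2, triangles replicates 3 and 4, and bars the mean and SD (n = 4). For 1421105_at and 1421106_at every mutant sample lies above every wild type sample, while for 1434070_at and Hes1 the genotypes overlap.

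The target genes were not called in any of the 7 comparisons. Hes1, a repressor that also oscillates through its own negative feedback, read 9.33, 9.50, 8.95 and 9.10 log2 in wild type unirradiated replicates 1 to 4 and 9.28, 9.21, 8.90 and 9.01 in wild type irradiated ones. In mutant cells it read 9.54, 9.53, 9.56 and 9.26 without and 9.56, 9.68, 9.29 and 9.18 with irradiation. The groups overlapped in each comparison, and the second number run lay lower in 3 of the 4 groups throughout. Averaged over irradiation the mutant value was higher by 0.29 log2 units (SE 0.10) with a limma adjusted p of 0.0652. This p was 0.00206 with the replicate block and 0.00113 with the number run as a block. It was 0.0330 without wild type unirradiated replicate 2 and 0.0422 without mutant irradiated replicate 4. With irradiation alone the difference was 0.33 (SE 0.13, adjusted p 0.247, or 0.0179 with the replicate block and 0.0123 with the number run as a block). Irradiation gave -0.12 log2 units (95% interval -0.41 to 0.17) in wild type and -0.04 (-0.33 to 0.24) in mutant cells.

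Hey1, a repressor with roles in heart and vessel development, read 6.43, 6.63, 6.68 and 6.54 log2 in wild type unirradiated and 5.77, 6.36, 6.68 and 6.60 in wild type irradiated replicates 1 to 4. In mutant cells it read 6.80, 6.65, 7.10 and 6.77 without and 6.33, 6.99, 6.82 and 6.43 with irradiation. All groups overlapped, and wild type irradiated replicate 1 was the lowest sample. Irradiation gave -0.22 log2 units (95% interval -0.62 to 0.18) in wild type and -0.19 (-0.58 to 0.21) in mutant cells, and the mutant was higher by 0.28 (SE 0.13, limma adjusted p 0.218) averaged over irradiation. Heyl, a related repressor expressed in smooth muscle, had group means of 5.19 to 5.30 log2 by 1438886_at, with samples from 5.05 to 5.68, and effects of irradiation of -0.02 and 0.06 in wild type and mutant cells. Its probe sets 1419302_at and 1419303_at had group means of 2.87 to 2.92 and 2.01 to 2.11, below the filter.

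The other genes of the pathway, 61 ligands, proteases, glycosyltransferases, trafficking factors, nuclear cofactors and further targets, were listed for comparison. Of these, 56 had a probe set, and 47 genes with 91 probe sets were tested. After irradiation, 6 of the 91 were called in wild type (5 up, 1 down, 6.59%, beside 2.31% of all probe sets) and 4 in mutant cells (3 up, 1 down, 4.4%, beside 2.67%). Averaged over genotypes, 8 were called (6 up, 2 down), and this 8.79% is close to the 7.51% of all probe sets. The median irradiation effect averaged over genotypes was -0.002 log2 units over the 91, beside 0.013 over all probe sets. The difference of irradiation effects called 0 of the 91.

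The probe sets called after irradiation, averaged over genotypes, belonged to 6 genes. Fbxw7, the F-box protein that marks the Notch intracellular domain for degradation, was higher by 0.65 log2 units (SE 0.11, limma adjusted p 0.000732) by 1451558_at and by 0.87 (SE 0.19, adjusted p 0.00688) by 1424986_s_at. Hes6, a Hes family member that opposes Hes1, was higher by 0.53 (SE 0.09, adjusted p 0.000561) by 1452021_a_at and by 0.59 (SE 0.12, adjusted p 0.00522) by 1436050_x_at. The non-canonical ligand Dlk2 was higher by 0.50 (SE 0.09) by 1450005_x_at, and Poglut1, which adds O-linked glucose to Notch receptors, by 0.38 (SE 0.07). The other Dlk2 probe set, 1420807_a_at, was tested and not called. The corepressors Tle3 and Ctbp2 fell by 0.36 (SE 0.06) and 0.29 (SE 0.09), each by 1 probe set. These were the only 2 called of the 17 corepressor probe sets, and the other tested probe sets of both genes were not called. Ctbp2, named here after its values were seen, was called in 4 of the 16 fits that left out 1 extract. No probe set of the nuclear complex, Rbpj included, was among them, and none of the proteases. By genotype, 2 of the 91 were called without irradiation (2.2%, beside 2.16% of all), 2 with it (2.2%, beside 2.09%) and 3 averaged over it (3.3%, beside 6.25%). These shares are near or below those of all probe sets, and all the calls were higher in mutant cells. They were the non-canonical ligand Dlk1, higher by 1.18 log2 units (SE 0.07) or 2.26-fold averaged over irradiation by 1449939_s_at, and the corepressors Tle1 (0.73, SE 0.10) and Tle3 (0.24, SE 0.06). Each of these genes was called by 1 probe set, and its other tested probe sets were not called.

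**Figure D5:**
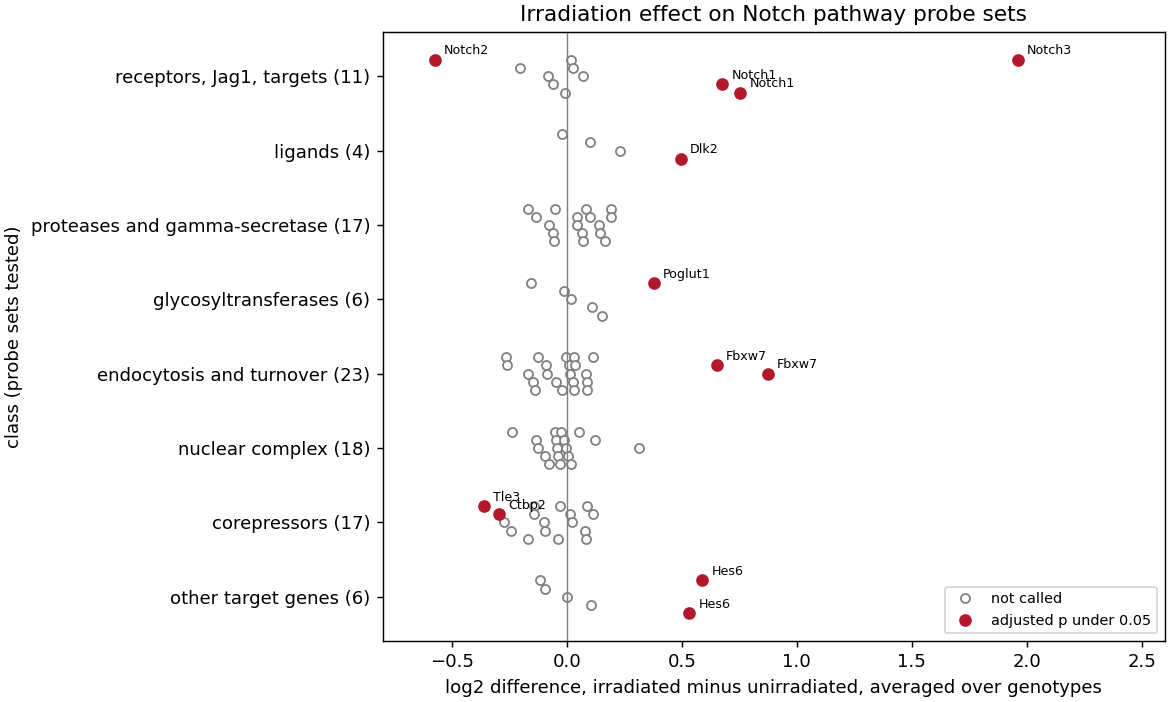
Irradiation effect averaged over genotypes (log2, horizontal axis) for each tested probe set, by class of pathway gene, with the number of probe sets in parentheses; filled points were called at an adjusted p under 0.05 and carry the gene name. Notch3 at 1.96 log2 units lies farthest from 0, and most of the 91 other pathway probe sets lie near 0.

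The probe sets whose values over the 16 array A samples were most like those of each called gene were listed by Pearson's r, as a description over samples that share their groups and number runs. For Notch3 (1421965_s_at) they were those of Wrap73 (r = 0.965), Hpcal1 (0.960), Dcxr (0.952), Ankrd44 (0.951) and Efna3 (0.949), with an r of deviations from the group means of 0.681 to 0.827. For Notch1 (1418634_at) they were Rprm (0.950), Slc19a2 (0.940), Lpin1 (0.939), Susd6 (0.936) and Apaf1 (0.934). For Notch2 they were Gpr85 (0.890), Myadm (0.876), Miip (0.867), Fbxw2 (0.866) and Ube2w (0.858). For Jag1 (1421106_at) they were Gstm2 (0.928), Ghitm (0.927), Mccc1 (0.927), Cxcl14 (0.924) and Clca3a1 (0.922). The r of deviations from the group means was 0.661 to 0.801 for Notch1, 0.611 to 0.865 for Notch2 and 0.723 to 0.878 for Jag1.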

How the data were processed

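Mouse embryonic fibroblast RNA was measured on Affymetrix MOE430A and MOE430B arrays, called A and B. The authors deposited 1 table of log2 probe set values per array type; the base was taken from the range, and no source names the method that made the values. All columns were matched to samples by title (0 unmatched). The platform annotation named a single gene for 20380 (array A) and 14661 (array B) probe sets, and symbols were updated by gene ID through RefSeq GRCm38.p6. The level of Pou2f1, the mutated gene, was not analysed here.

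Each array type was fitted alone in limma 3.58.1 (R 4.3.3) with 4 group means, 12 residual degrees of freedom and a variance trend, after control probe sets and those with a mean under the 40th percentile (4.97 on array A, 3.36 on array B) were left out. This kept 13576 and 13507 probe sets. P-values were adjusted by Benjamini-Hochberg within array type and comparison, and called under 0.05. Tables and plots used Python 3.11.15 with pandas 2.3.3, numpy 2.4.6 and matplotlib 3.10.9. The fit was run on simulated data with independent noise and no number run effect, so that run does not cover the number run differences seen here.

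All member probe sets are reported. Of the other pathway genes, all called ones are named where at most 6 were called in a comparison, and otherwise the 4 with the smallest adjusted p. The members and lists were chosen with earlier results of these data known. The likeness lists give the 5 highest correlations.

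Replicate numbers come from the labels and are shared by the groups. Deviations from the group means had correlations of 0.32 to 0.72 (array A) and 0.24 to 0.60 (array B) between samples of the same number. Their medians were 0.58 and 0.44, close to the 0.56 and 0.40 between samples of other numbers in the same number run. Between samples of different number runs the medians were -0.58 and -0.43. With the mean of each number run removed, the median correlation between samples of the same number was -0.001 and 0.04. The likeness thus followed the number run, and pairs by number were not shown. The main fit held no term for the number run. The numbers were still used as a block in an alternative fit. The array A label of Oct-1 mutant unirradiated replicate 1 has no number, which was taken from the array B label of the same title number. The other alternatives were the number run as a block, each number run alone, no filter, a filter at the 60th percentile, quantile normalization, no variance trend, and leaving out each of the 16 extracts. The test of the irradiation effect between number runs and the p53 half-site search were added after seeing the data.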

Additional observations from a re-analysis of the deposited data

Results flagged for a closer look

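Within the groups of 4, the most extreme sample of each of the 11 tested probe sets was compared with its nearest neighbour by Dixon's ratio, over 44 groups. Chance flags about 1 in 20 such groups, and 2 samples stood apart. Notch4 by 1436901_at read 4.03 log2 in wild type irradiated replicate 3, where the nearest other replicate read 3.62. Hes1 read 9.26 (9.264) in Oct-1 mutant unirradiated replicate 4, where the nearest other replicate read 9.53.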

How the results depend on the processing

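The differences of the 11 tested probe sets in 7 comparisons were recomputed under 24 settings, 1813 values in all. Of 331 recomputed values of called differences, 31 lost the call and 0 changed sign; 18 uncalled ones gained a call. Counts of called probe sets are out of 11. With the replicate block, 3 were called for genotype with irradiation in place of 0 and 4 for genotype averaged over irradiation in place of 2. The number run as a block gave the same 3 and 4. Of all 13576 array A probe sets, the number run block called 1405 and 3033 in these comparisons, in place of 516 and 1437. In the first number run alone, genotype without irradiation called 1 in place of 2. The second run alone called 0 there, 4 for genotype averaged over irradiation, 1 for irradiation in wild type in place of 2 and 2 for irradiation in mutant cells in place of 4. Of all array A probe sets, genotype without irradiation called 492 in the first run alone and 645 in the second, in place of 525. The second run alone called 1768 for genotype averaged over irradiation in place of 1437. For irradiation it called 357 in wild type in place of 521 and 357 in mutant cells in place of 632. The filter at the 60th percentile kept 6 of the 11 probe sets, of which 1 was called for irradiation in wild type, 2 in mutant cells and 2 averaged over genotypes in place of 4. Those it removed included Notch3 1421965_s_at and Notch1 1418633_at, so the Notch3 rise was not tested under that filter. On array A it kept 9051 probe sets and called 445, 548 and 1509 of them in these 3 comparisons. The main fit called 521, 632 and 1745 of 13576. Leaving out 1 extract gave 1 to 3 for irradiation in wild type and 0 to 2 for genotype without irradiation. Over all array A probe sets it gave 362 to 532 and 343 to 514 in these comparisons. The replicate block moved no other count by over 1.5 times. Apart from the filter, which removed probe sets, the cause was not tested. The number of arrays limits the precision, and probe sets below the filter carry little signal.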
